A study of Mus musculus with 16 samples.

Results

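The genes described here encode the proteins of the cytosolic ribosome. They were chosen by name from the deposited table, as symbols beginning with Rpl or Rps followed by a number, together with the stalk genes Rplp0, Rplp1 and Rplp2, without the S6 kinases, and with a mean of at least 20 counts over 16 mouse livers. Of 16973 genes in the table, 82 had such names and 79 reached the minimum, 47 of the large subunit and 32 of the small subunit. No measured difference between groups entered this rule, although the genes were chosen with earlier results of these data known. Below the minimum were Rpl39l at a mean of 1.0, Rpl3l at 1.5 and Rpl41 at 16.7 counts, and just above it were Rpl22 at 32.4, Rps3a2 at 58.9 and Rps3a3 at 137 counts. The symbols Rpsa and Rps27 name no gene in the table and were not analysed here.

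Ribosomal proteins are made in nearly equal amounts and assemble with ribosomal RNA in the nucleolus into the small subunit, which reads the messenger RNA, and the large subunit, which joins amino acids. Their mRNAs are among the most abundant of the liver and are known for a terminal oligopyrimidine start, a stretch of C and T at the cap through which mTORC1 and the RNA-binding protein LARP1 control their translation and stability. Most of the genes have many processed pseudogene copies in the mouse genome, so that reads can match more than 1 place.

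The livers came from male C57BL/6 mice, and RNA was sequenced after removal of ribosomal RNA. Each of 4 groups had 4 livers. The METTL3 hepatocyte-specific knockout targets Mettl3, the catalytic subunit of the enzyme that writes N6-methyladenosine on mRNA, and the RPN11 hepatocyte-specific knockout targets Psmd14, whose product is the deubiquitinase of the proteasome lid. Each was compared with flox/flox mice of its own line, METTL3 flox/flox or RPN11 flox/flox. No source used here gives the Cre driver, the deleted exons, the age or the diet, or says whether each liver was from a separate animal, so the p-values measure the spread between these samples. Only hepatocytes were targeted, and the other cells of the liver were sequenced with them.

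Library totals ran from 15980959 counts in METTL3 knockout replicate 4 to 29029592 in METTL3 flox/flox replicate 1, and the ribosomal protein genes together took from 165563 to 446183 counts a liver. Levels are CPM, the counts of a gene scaled to a common library total, over library sizes scaled by the trimmed mean of M values (TMM), and a gene is called higher or lower at an adjusted p under 0.05 in edgeR's quasi-likelihood test, adjusted over all tested genes. Mettl3 was at 6.77 ± 0.180 CPM in METTL3 knockout and 16.6 ± 2.18 in METTL3 flox/flox livers (SD, n = 4 each, adjusted p = 0.000647). Psmd14 was at 74.1 ± 10.4 CPM in the livers labelled RPN11 knockout and 73.8 ± 3.28 in RPN11 flox/flox livers (SD, n = 4 each, adjusted p = 0.976), so those livers are called by their label throughout. A list of 16 brain marker genes, 15 of them in the table, summed to 600 CPM of plain totals in labelled RPN11 knockout replicate 4 and to 489 in METTL3 knockout replicate 4, against 11.7 to 24.3 in the other 14 livers. In 12 of those 15 genes at least 1 liver had no count. Of 10 hepatocyte markers, all were in the table with counts in every liver, and their summed level was between 98000 and 156300 CPM.

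Short stretches of the RefSeq promoter table (GRCm38.p6) are shown for the genes whose changes or near misses are described below, to let runs of C and T near the annotated start be seen. Capitals mark the longest unbroken run of C and T between 50 bases before and 50 bases after the annotated start of transcription, the first where runs are equally long, and each stretch of 30 bases lies around its run on the coding strand.
Rps12, chr10:23787182-23787211, minus strand: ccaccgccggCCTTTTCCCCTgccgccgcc
Rpl12, chr2:32961732-32961761, plus strand: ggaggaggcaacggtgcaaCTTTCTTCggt
Rplp0, chr5:115559466-115559495, plus strand: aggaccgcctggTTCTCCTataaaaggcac
Rps4x, chrX:102189342-102189371, minus strand: cgcgcagcctccgaccctaaTTTCTTCgtt
Rps15a, chr7:118116143-118116172, minus strand: gcccggcccaCTCTCTTTCTgccatcttcc
Rps21, chr2:180257399-180257428, plus strand: ggaggcacgagctaCTTCCTTTCTgcgctc
Rps27l, chr9:66946053-66946082, plus strand: ccccgcctccaCTCCTCTCCactcctcccc
Rpl22l1, chr3:28805499-28805528, plus strand: cgcaagcccgTTCTCTTCCCacggctgcag

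The run was 11 bases long in Rps12, 10 in Rps15a, Rps21 and Rpl22l1, 9 in Rps27l, where another run of 9 in lower case follows nearer to the start, 8 in Rpl12 and 7 in Rplp0 and Rps4x. Of the ribosomal protein genes, 56 were matched in the promoter table by symbol, leaving out Rpl24 for a reason given below. Their longest run had a median of 11 bases, against 7 over the 27025 gene symbols of the table. A run of at least 10 bases stood in 42 of the 56 (75.0%) and in 20.6% of all genes. Among 15 strings searched on both strands from 250 bases before to 50 bases after the start, chosen after the data had been seen and overlapping one another in part, CGGAAG occurred in 37 of the 56 (66.1%) and in 18.8% of all genes, CTTTCC in 48.2% and 29.3%, and TATAAA in 12.5% and 15.7%. These are matches of letters near annotated starts. A run could lie anywhere within 50 bases of the start and so need not be the stretch at the cap. The 30 bases shown for Rpl12, Rps4x and Rps21 lie 20 to 49 bases after the start, and those for Rps27l at -33 to -4. The starts used in these livers were not measured.

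The 79 genes lie on 19 chromosomes, and all were found by identifier in the GENCODE M21 annotation (GRCm38). For 3 of them the name and the identifier call for care. The row named Rpl24 carries the identifier ENSMUSG00000022601, which GENCODE gives to Zbtb11, a zinc finger gene at chr16:55973883-56008913, while the identifier of Rpl24 itself stands in the table under the capitalised symbol RPL24 with 2 to 29 counts a liver. Rps3a2 and Rps3a3 are processed pseudogenes of the small subunit gene Rps3a1, and no source used here says how reads were divided between such copies. Counts of called genes are given below also without these 3.

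Per kilobase of annotated exon, the highest levels over the 16 livers were those of Rps3a1, a protein of the small subunit's platform, with 276 ± 48.9 CPM per kb (SD, n = 16), and of Rpl4, a large subunit protein lining the peptide exit tunnel, with 268 ± 37.5. These neighbours in the order did not differ beyond their spread. Rps6, the small subunit protein phosphorylated by the S6 kinases, followed with 229 ± 42.5, then Rpl23a with 181 ± 36.1 and Rpl19 with 165 ± 19.5. The lowest were Rpl22 with 0.444 ± 0.213, Rps3a2 with 2.86 ± 0.784, the Rpl24 row with 3.26 ± 0.684, Rps3a3 with 6.5 ± 2.38 and Rpl36a with 7.97 ± 1.92 CPM per kb. Exon length here covers all annotated exons of a gene, so a gene with long rarely used exons, such as Rps15a with 6270 bases, ranks low.

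The stalk proteins form the lateral arm that recruits the elongation factors. On the same scale Rplp1 was at 152 ± 57.0, Rplp0 at 137 ± 40.6 and Rplp2 at 28.5 ± 7.74 CPM per kb, and those of Rplp1 and Rplp0 overlapped in range. Paralogs differed from their parents in level. Rpl22l1 stood at 9.98 ± 2.46 CPM per kb against 0.444 for Rpl22, and Rpl7l1 at 12.6 ± 1.44 against 113 ± 13.1 for Rpl7. Rps27l, the paralog of Rps27 and a known p53 target, held rank 10 of the 79 with 135 ± 26.2. Between livers Rpl12 and Rpl22 varied most, with coefficients of variation of 48.4% and 48.1% of the CPM, followed by Rps12 with 46.7%, while Rpl7l1 with 11.4% and Rpl7 with 11.54% varied least.

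Summed over the 79 genes, the METTL3 knockout livers held both high and ordinary values. Their share of all counts was 0.880%, 1.61%, 1.395% and 1.77% in replicates 1 to 4, against 0.913%, 1.02%, 0.854% and 0.774% in METTL3 flox/flox livers. Replicate 1 of the knockout lay inside the range of its flox/flox livers and the other 3 lay above it. With TMM scaling over all 16 livers the sums were 9117, 12703, 11440.0 and 12187 CPM in METTL3 knockout and 10341, 10857, 9417 and 8299 CPM in METTL3 flox/flox livers, so scaling brought the groups closer and left 3 knockout livers above all 4 controls. In whole liver, fewer cells of a type and less RNA per cell cannot be told apart.

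In the RPN11 line the share of counts was 0.686%, 0.843%, 0.689% and 1.15% in the labelled knockout livers and 0.691%, 0.710%, 0.742% and 0.819% in the flox/flox livers. Replicate 4 was the highest of the labelled knockouts and replicates 1 and 3 were as low as the lowest control. Scaled sums were 7232, 8802, 7242 and 9873 CPM in the labelled knockouts and 7566, 8019, 8156 and 9252 CPM in the controls. The groups overlapped on both scales. Replicate 4 is also the liver with the high brain marker sum. Its macrophage marker sum was 1170 CPM of plain totals, against 364 to 607 in the other labelled knockouts. Cholangiocyte markers summed to 720 against 86.7 to 96.8 CPM and lymphocyte markers to 68.2 against 30.4 to 38.2 CPM. Its stellate, endothelial, erythroid and hepatocyte sums were not the highest of its group. The part of these markers in the ribosomal protein sums was not tested. The ratio of large to small subunit counts stayed between 1.53 and 1.64 in all 16 livers.

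**Figure D1:**
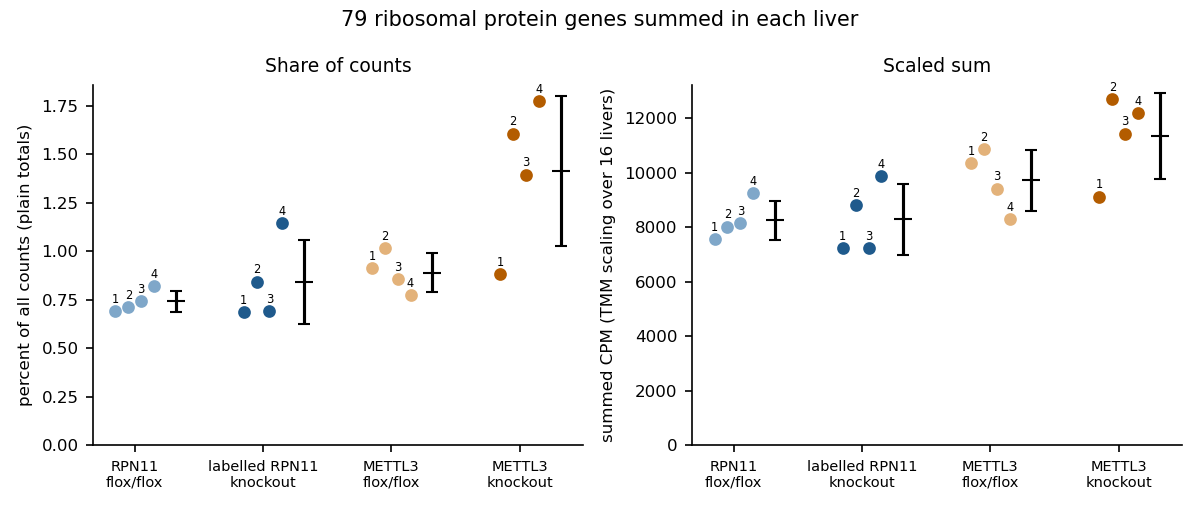
The 79 ribosomal protein genes summed in each liver, as percent of all counts (left) and as summed CPM with TMM scaling over 16 livers (right), by group; points are livers with their replicate number, bars the mean and SD (n = 4). METTL3 knockout replicates 2, 3 and 4 lie above every METTL3 flox/flox liver on both scales, and replicate 1 lies among them.

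The genes moved together across livers. Relative to each gene's own median over the 16 livers, 75, 73 and 71 of the 79 genes were above it in METTL3 knockout replicates 2, 3 and 4, but 35 in replicate 1. In METTL3 flox/flox livers 75, 75, 59 and 8 genes were above, in labelled RPN11 knockout livers 3, 36, 4 and 57, and in RPN11 flox/flox livers 5, 6, 5 and 45. Replicates of every group thus covered a wide range, and METTL3 flox/flox replicate 4 was low while replicates 1 and 2 of that group were high. The median deviation on the log2(CPM + 0.5) scale ran from -0.36 in labelled RPN11 knockout replicate 3 to 0.45 in METTL3 knockout replicate 2.

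**Figure D2:**
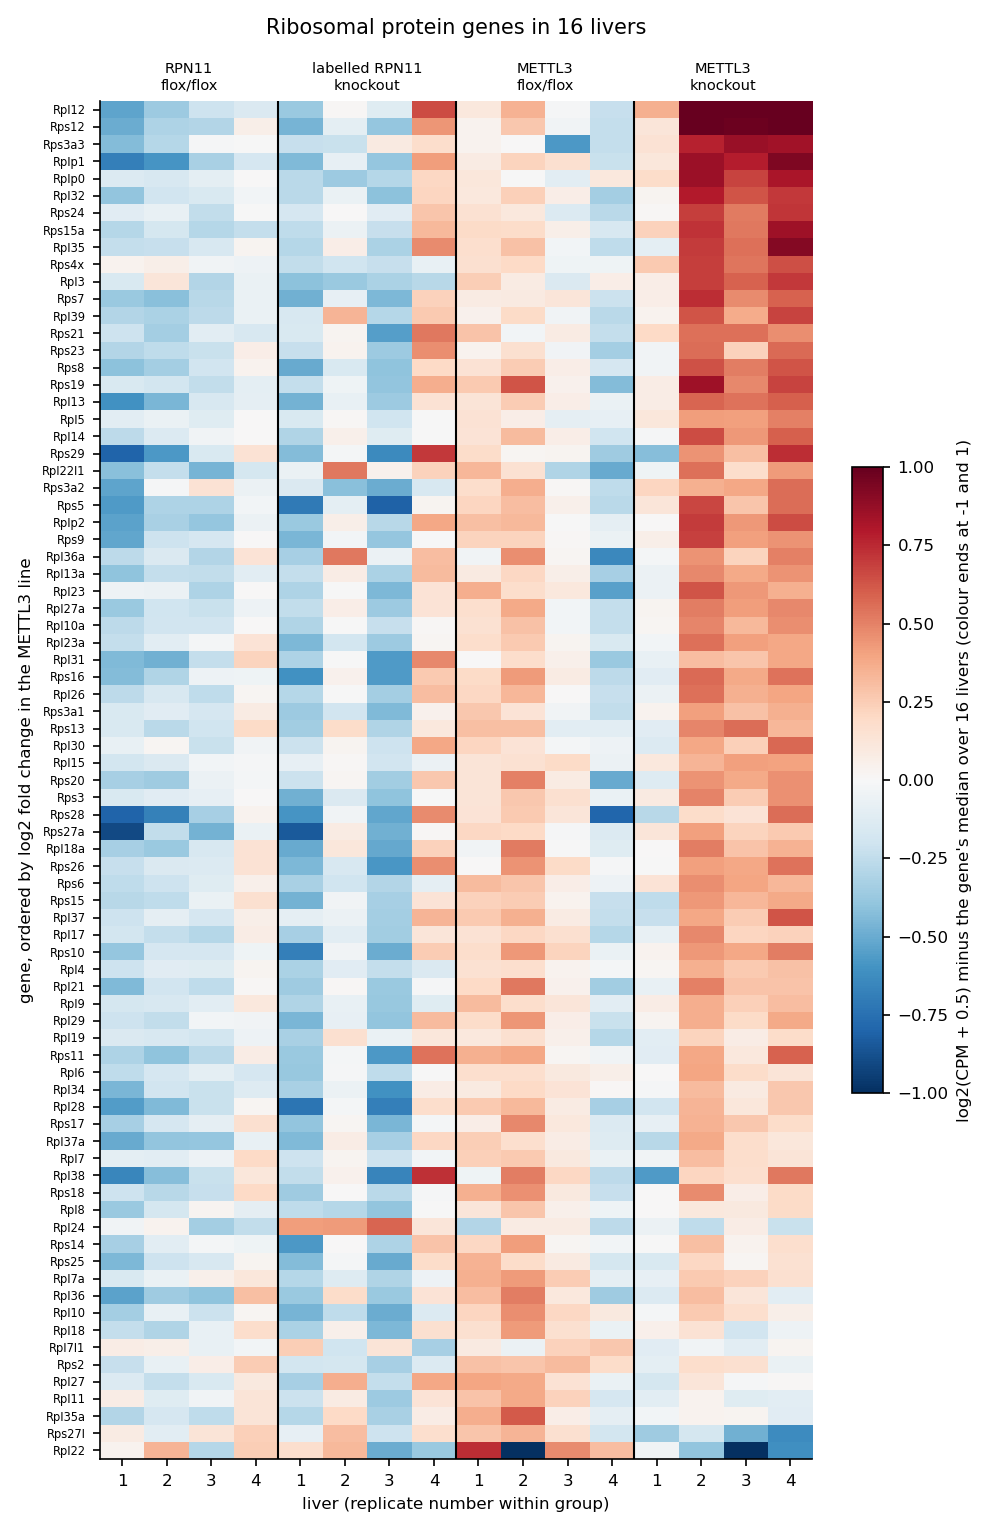
Level of each of the 79 genes (rows, ordered by log2 fold change in the METTL3 line) in each of 16 livers (columns, by group and replicate), as log2(CPM + 0.5) minus the gene's median over the 16 livers, with the colour scale ending at -1 and 1. Columns are largely of 1 colour, and METTL3 knockout replicate 1 is paler than replicates 2, 3 and 4.

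Loss of METTL3 was compared with METTL3 flox/flox to ask which ribosomal protein mRNAs differ with the methyltransferase. In the METTL3 knockout livers 9 of the 79 genes rose and 1 fell, while 69 did not pass the threshold. Over all 12450 tested genes 15.2% were called higher and 15.3% lower, so the 11.4% of ribosomal protein genes called higher was below that background and the 1.27% called lower was far below it. The median log2 fold change of the 79 was 0.215, against 0.042 over all tested genes, and 64 of the 79 values were above 0. Among the large subunit genes 4 of 47 rose and none fell, and among the small subunit genes 5 of 32 rose and 1 fell. Without the Rpl24, Rps3a2 and Rps3a3 rows, 8 of 76 rose and 1 fell. An unadjusted p under 0.05 was reached by 18 of the 79, a smaller share than the 5323 of all 12450 tested genes.

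The largest rises were in genes of both subunits. Rpl12, a large subunit protein at the base of the stalk, was at 193, 390, 315 and 395 CPM in METTL3 knockout replicates 1 to 4 and at 163, 195, 152 and 130 CPM in METTL3 flox/flox livers. The 3 high knockout livers stood clear of the controls and replicate 1 lay just below the highest control. The log2 fold change was 1.01 (SE 0.23, adjusted p = 0.00671, a 2.02-fold rise). Rps12, a protein of the small subunit's beak, was at 67.8, 142, 124 and 159 CPM in knockout and 64.3, 76.6, 62.0 and 53.4 CPM in flox/flox livers. Replicate 1 was again among the controls. Its log2 fold change was 0.94 (SE 0.23, adjusted p = 0.0108).

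The stalk genes rose in part. Rplp0 was at 243, 393, 345 and 389 CPM in METTL3 knockout and 232, 216, 202 and 233 CPM in flox/flox livers, and all 4 knockout livers were above all 4 controls. Its log2 fold change was 0.63 (SE 0.17, adjusted p = 0.0182). Rplp1 was at 78.1, 133, 126 and 143 CPM against 76.9, 85.7, 81.9 and 62.4 CPM, with replicate 1 inside the control range, and its log2 fold change was 0.64 (SE 0.19, adjusted p = 0.0223). Rplp2 had a log2 fold change of 0.34 (SE 0.17) at an adjusted p of 0.156 and did not pass.

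Of the rest that rose, the pseudogene Rps3a3 went from 4.33 ± 0.884 CPM in flox/flox to 8.30 ± 1.92 CPM in knockout livers (SD, n = 4 each, adjusted p = 0.0227), whereas its parent Rps3a1 had a log2 fold change of 0.24 (SE 0.17, adjusted p = 0.292). Rps15a, a small subunit protein, was at 94.8, 136, 118 and 151 CPM in knockout and 93.3, 93.3, 85.7 and 73.2 CPM in flox/flox livers, without overlap but with replicate 1 close to the highest controls, and its log2 fold change was 0.53 (SE 0.16, adjusted p = 0.0258). Rps4x, the X-linked form of a small subunit protein, was at 247, 337, 300 and 331 CPM against 230, 239, 203 and 201 CPM, also without overlap (log2 fold change 0.48, SE 0.15, adjusted p = 0.0351). Rpl32 and Rps21, named after their values were seen, were the last to pass, with log2 fold changes of 0.54 (SE 0.19, adjusted p = 0.0495) and 0.42 (SE 0.15, adjusted p = 0.0496). In 4 of the 79 genes, Rplp0, Rps3a3, Rps15a and Rps4x, all knockout livers were above all controls, against 15.4% of all tested genes.

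Rps27l was the gene that fell. It was at 90.1, 104, 83.2 and 76.6 CPM in METTL3 knockout and 141, 148, 131 and 103 CPM in flox/flox livers. The groups overlapped, the highest knockout liver lying just above the lowest control, and the log2 fold change was -0.56 (SE 0.15, adjusted p = 0.0158). Next in that direction were Rpl11, a large subunit protein known to bind Mdm2 when free of ribosomes, with -0.27 (SE 0.14, adjusted p = 0.167), and Rpl35a with a flox/flox range of 55.5 to 90.5 CPM and a knockout range of 55.4 to 60.5 CPM. Neither passed. Rps2, a small subunit protein at the mRNA entry, was the 1 gene with all knockout livers below all controls, at 213 to 261 CPM against 262 to 289 CPM, and did not pass either (adjusted p = 0.242). For all tested genes such full separation downward occurred in 16.2%.

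**Figure D3:**
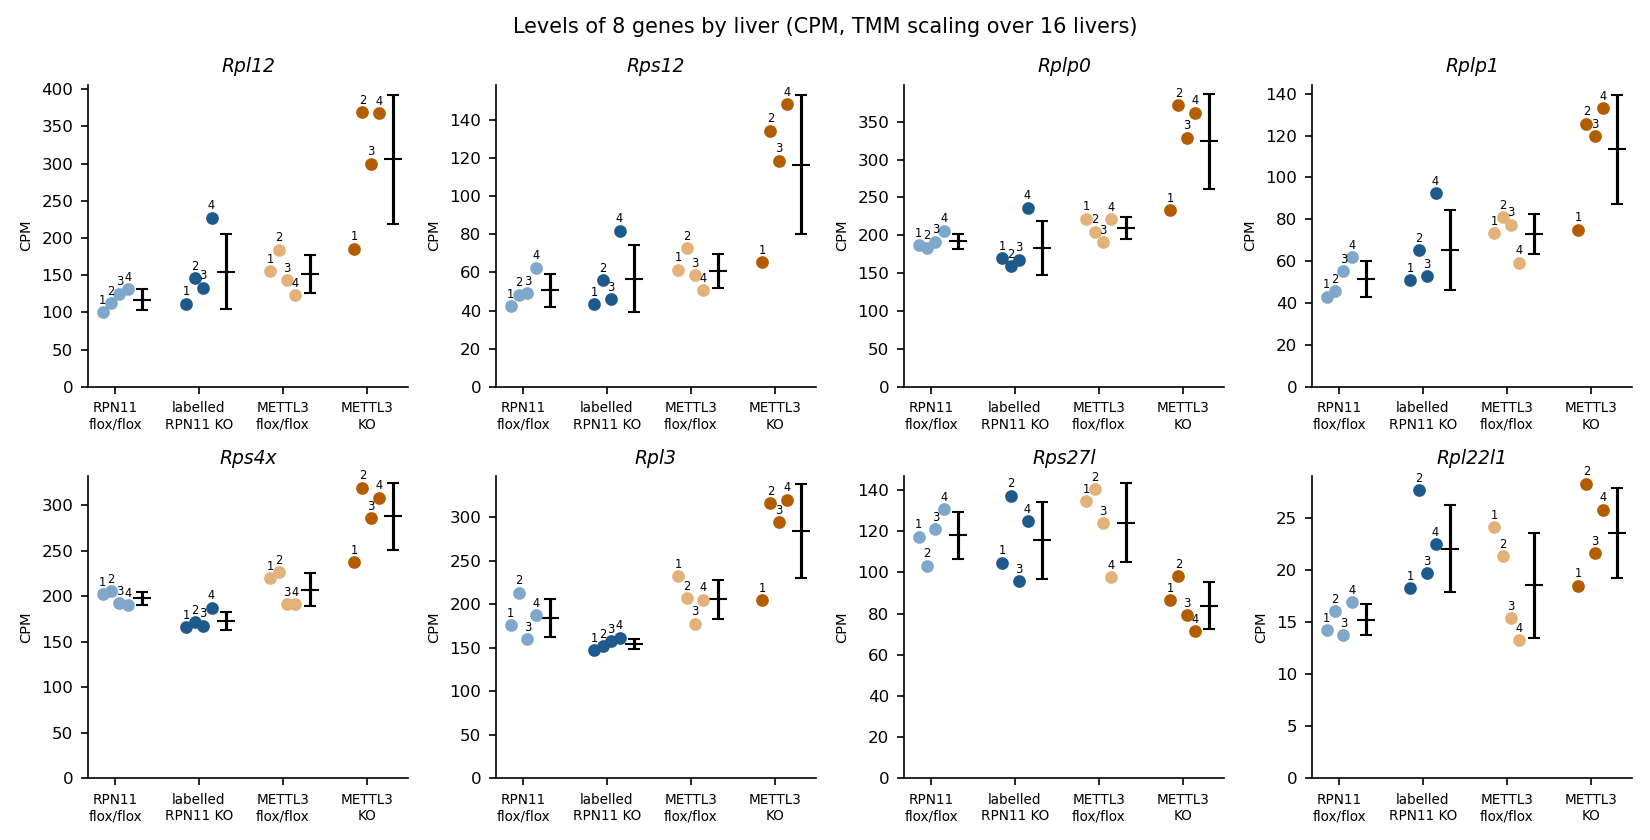
Levels of 8 genes in each liver, in CPM with TMM scaling over 16 livers, by group, with points numbered by replicate and bars for the mean and SD (n = 4). Rpl12, Rps12, Rplp0, Rplp1, Rps4x and Rpl3 are high in METTL3 knockout replicates 2, 3 and 4 and Rps27l is lower in METTL3 knockout than in METTL3 flox/flox livers.

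How many genes were called in the METTL3 line depended on single livers and on scaling. Without knockout replicate 1 the number that rose was 26, with 19.2% of all genes called higher, and without knockout replicates 2, 3 and 4 it was 2, 4 and 4. Without flox/flox replicates 1, 2, 3 and 4 it was 6, 5, 3 and 4, and without flox/flox replicate 1 none fell. In those 7 settings 10.8% to 13.1% of all genes were called higher. The median log2 fold change of the 79 ran from 0.129 without flox/flox replicate 4 to 0.319 without knockout replicate 1, and was 0.171 without knockout replicate 4, a liver with a high brain marker sum. Rpl12 and Rps12 passed in each of 15 alternatives tried. With plain library totals in place of TMM the median of all tested genes moved from 0.042 to 0.463 and that of the ribosomal protein genes from 0.215 to 0.662, and 49 of the 79 were called higher and 0 lower, against 32.7% and 6.34% of all genes.

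Markers of several cell types that were not targeted differed between the same livers, not all in 1 direction. Of 12 macrophage markers 11 were in the table and 10 were tested, and all 10 rose in METTL3 knockout livers, their summed level being 520, 978, 868 and 1754 CPM of plain totals in replicates 1 to 4 against 189 to 266 CPM in flox/flox livers. Of 8 stellate cell markers 7 rose, with sums of 513 to 864 CPM against 231 to 308 CPM, and 4 of 7 tested endothelial markers rose, with sums of 207 to 254 CPM against 112 to 150 CPM. Of the cholangiocyte markers 2 of 6 rose, with sums of 197 to 783 CPM against 59.2 to 133 CPM, and of the lymphocyte markers 1 of 7 tested rose, with sums of 32 to 85.2 CPM against 11.1 to 18.4 CPM. Of the erythroid markers 0 of 5 tested rose and 2 fell, with overlapping sums of 101 to 164 CPM against 137 to 272 CPM. Hepatocyte markers summed to 146900, 113500, 98000 and 105000 CPM in knockout replicates 1 to 4 and to 129300 to 146500 CPM in flox/flox livers, and 4 of 10 fell. No marker of these lists was at 0 in all livers. Knockout replicate 1, the lowest of its group in ribosomal protein sums, was also the lowest in macrophage, stellate, endothelial, cholangiocyte and lymphocyte sums and the highest in hepatocyte sums. It was not the lowest in erythroid or brain sums, with 155 CPM of erythroid markers against 101 in replicate 4. In the RPN11 line, labelled knockout replicate 2 had the lowest macrophage and highest hepatocyte sum of its group. Its scaled ribosomal protein sum was nonetheless above those of replicates 1 and 3. The part of these markers in the result was not tested.

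Among short genes more were called lower than higher in METTL3 knockout livers. The ribosomal protein genes had a median exon length of 1830 bases, against 4446 for all tested genes. Among the shortest tested genes, those of up to 2795 bases and without the ribosomal protein genes, 285 of 3037 were called higher and 714 lower, with a median log2 fold change of -0.221. Nuclear genes of oxidative phosphorylation, which supply the respiratory chain, gave 0 higher and 55 lower of 58 tested, with a median of -0.833. The ribosomal protein genes had a median on the other side of 0 from both.

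In the RPN11 line no gene that encodes a ribosomal protein passed the threshold. The single call among the 79 was the Rpl24 row, whose identifier is that of Zbtb11, and 0 of 79 were lower. Over all 12108 tested genes 1.99% were called higher and 2.82% lower. The median log2 fold change of the 79 was 0.053 against 0.034 for all genes, and without labelled knockout replicate 4 it was -0.059 against -0.008. An unadjusted p under 0.05 was reached by 2 of the 79, a smaller share than the 3032 of all 12108 tested genes. DESeq2 called 2 higher, the Rpl24 row and Rpl22l1, and 0 lower, and its share of all genes is not given here. Without the 3 doubtful rows 0 of 76 passed, 1 of them with an unadjusted p under 0.05.

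The Rpl24 row was at 29.9, 30.1, 33.6 and 25.6 CPM in labelled RPN11 knockout and 21.9, 23.1, 17.5 and 18.5 CPM in flox/flox livers, with a log2 fold change of 0.56 (SE 0.13, adjusted p = 0.0375). It no longer passed without any one of 7 of the 8 livers. Next was Rpl22l1, the paralog of the large subunit protein Rpl22, at 17.2, 26.1, 18.6 and 22.4 CPM in labelled knockout and 13.5, 15.3, 12.9 and 15.8 CPM in flox/flox livers. Both genes had all 4 labelled knockout livers above all 4 controls, as 8.32% of all tested genes did, and no gene of the 79 had them all below, as 9.86% of all genes did. Rpl22l1 had a log2 fold change of 0.55 (SE 0.16, adjusted p = 0.0628), and its adjusted p ran from 0.0333 with DESeq2 to 0.179 over 15 alternatives. Rpl22 itself was at 18 to 47 counts a liver in the 4 labelled knockouts and 23 to 45 in the controls, too few for a close comparison.

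The next genes by p in the RPN11 line overlapped between groups and did not pass. Rpl39, a short protein of the large subunit's exit tunnel, had a log2 fold change of 0.32 (SE 0.15, adjusted p = 0.213). Rpl3, a large subunit protein close to the peptidyl transferase centre, had -0.24 (SE 0.11, adjusted p = 0.224). Rpl12, named after its values were seen, had 0.43 (SE 0.21, adjusted p = 0.241), Rplp1 had 0.37 (SE 0.21, adjusted p = 0.284) and Rplp2 had 0.32 (SE 0.18, adjusted p = 0.285), each with its highest level in labelled knockout replicate 4. Rps4x had -0.17 (SE 0.10, adjusted p = 0.315) and Rps2 had -0.20 (SE 0.12, adjusted p = 0.324).

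The differences of METTL3 knockout and of labelled RPN11 knockout livers from their own controls were compared directly in 1 fit of 16 livers. For 61 of the 79 genes the log2 fold change was larger in the METTL3 line, and the median difference was 0.144, against -0.019 for all tested genes. This median ran from 0.057 without labelled RPN11 knockout replicate 3 to 0.269 without labelled RPN11 knockout replicate 4, and was 0.06 without METTL3 flox/flox replicate 4. The difference passed the threshold for 3 genes and for 0 in the other direction, where 6.15% and 6.96% of 13118 tested genes passed. With both knockout replicates 4 left out, 4 passed, and the share of all genes in that setting is not given here. In the fit of all 16 livers an unadjusted p under 0.05 was reached by 8 of the 79. This was a smaller share than the 3658 of all 13118 tested genes. In 47 genes both lines had a log2 fold change above 0, in 17 the METTL3 line alone, in 7 the RPN11 line alone and in 8 neither.

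The 3 genes were Rps4x, Rpl3 and Rplp0. Rps4x stood at 237 to 319 CPM in METTL3 knockout, 191 to 226 in METTL3 flox/flox, 166 to 187 in labelled RPN11 knockout and 190 to 205 in RPN11 flox/flox livers, each on the 16-liver scale. It was the highest in one knockout group and the lowest in the other. The difference of its log2 fold changes was 0.66 (SE 0.17, adjusted p = 0.0164), and it passed in all 23 alternatives tried, with adjusted p from 0.000527 to 0.0449.

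Rpl3 stood at 205 to 320 CPM in METTL3 knockout and 178 to 232 in METTL3 flox/flox livers, and at 147 to 161 CPM in labelled RPN11 knockout and 160 to 213 in RPN11 flox/flox livers. Its difference was 0.72 (SE 0.21, adjusted p = 0.0281), although in neither line alone did it pass, and 7 of 23 alternatives, each leaving out 1 liver, took it to an adjusted p of up to 0.0717. Rplp0 had a difference of 0.69 (SE 0.22, adjusted p = 0.0443) and lost the call in 15 of 23 alternatives, with adjusted p of up to 0.103. In the other direction the lowest p belonged to the Rpl24 row with -0.57 (SE 0.20, adjusted p = 0.0671), then Rps27l with -0.53 (SE 0.21, adjusted p = 0.0932) and Rpl27 with -0.42 (SE 0.23, adjusted p = 0.239).

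**Figure D4:**
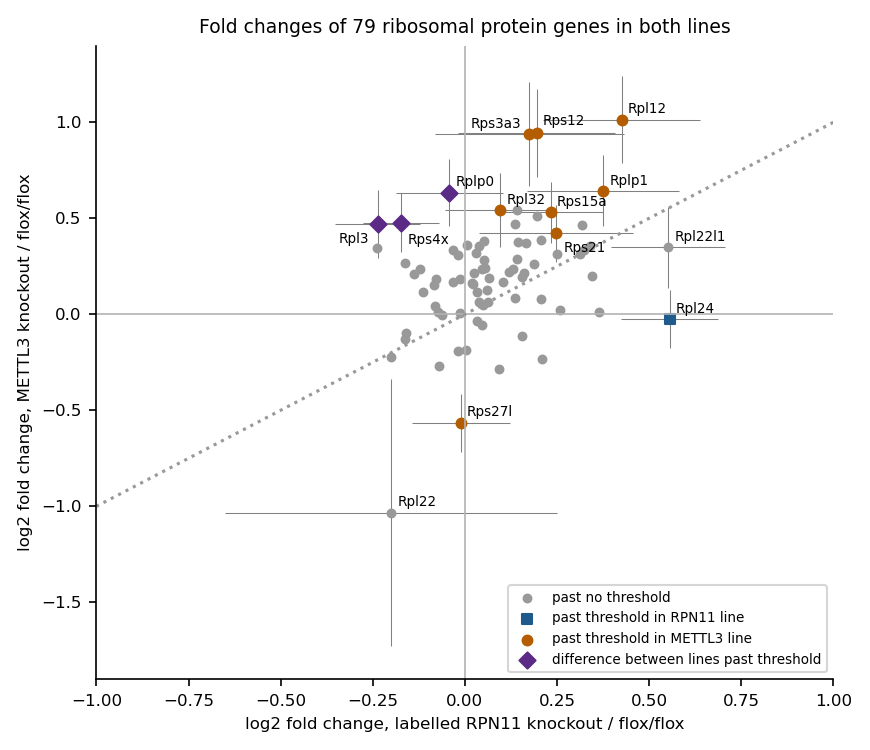
Log2 fold change of the 79 genes in the RPN11 line (x axis) and the METTL3 line (y axis), with standard errors for the genes named in the plot and a dotted line where both are equal. Rps4x, Rpl3 and Rplp0 (diamonds, of which Rps4x and Rplp0 also passed in the METTL3 line) lie above 0 in the METTL3 line and below 0 in the RPN11 line. The values are from the fit of each line alone, and most of the 79 lie above the dotted line.

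Control livers of the lines were also set against each other, so that the livers of both comparisons above are used again. All 79 genes had a log2 fold change below 0 for RPN11 flox/flox over METTL3 flox/flox livers, from -0.511 to -0.009 and a median of -0.267, against -0.019 for all genes and -0.113 for the shortest other genes. By edgeR 0 of the 79 passed in either direction, where 0.244% of 11905 genes were called higher and 0.0756% lower. An unadjusted p under 0.05 was found for 38 of the 79, a larger share than the 1962 of all 11905 tested genes. DESeq2 called 7 lower, with 1.31% of all genes. The lowest adjusted p was that of Rplp1, at 38.9, 41.6, 50.1 and 55.5 CPM in RPN11 flox/flox and 66.7, 74.1, 70.1 and 54.1 CPM in METTL3 flox/flox livers (log2 fold change -0.51, SE 0.13, adjusted p = 0.0847). METTL3 flox/flox replicate 4 overlapped the other group, and without it edgeR called 9 of the 79 lower, with 0.726% of all genes.

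Rpl10, a large subunit protein that completes the active centre, was at 183, 222, 202 and 234 CPM in RPN11 flox/flox and 272, 325, 270 and 251 CPM in METTL3 flox/flox livers, without overlap (log2 fold change -0.41, SE 0.11, adjusted p = 0.0881). Rpl37a had a log2 fold change of -0.44 (SE 0.12, adjusted p = 0.0942). In 5 of the 79 genes all RPN11 flox/flox livers were below all METTL3 flox/flox livers, against 4.36% of all genes, and in 0 they were all above, against 4.76%. Each knockout group was read against the flox/flox livers of its own line.

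Ribosomal proteins outside the naming rule were read the same way. Gnb2l1, which encodes the small subunit scaffold Rack1, rose from 150 ± 13.6 CPM in METTL3 flox/flox to 214 ± 34.6 CPM in METTL3 knockout livers (SD, n = 4 each, log2 fold change 0.51, SE 0.15, adjusted p = 0.0277), and stood at 118 ± 21.4 against 116 ± 9.65 CPM in the RPN11 line (adjusted p = 0.908). Fau, whose product is cleaved to give a small subunit protein, had a log2 fold change of -0.16 (SE 0.13, adjusted p = 0.369) in the METTL3 line.

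A list of 20 elongation factors and other genes with oligopyrimidine starts, 19 of them tested, showed both directions. In METTL3 knockout livers 3 rose and 3 fell, shares close to the 15.2% and 15.3% of all tested genes. Nap1l1, a histone chaperone, rose with a log2 fold change of 0.66 (SE 0.12, adjusted p = 0.00303), and Eef1b2 and Eef1g, subunits of the exchange factor of Eef1a1, with 0.61 and 0.47 (adjusted p = 0.0272 and 0.0329). Btf3, a chaperone of nascent chains, had -0.48 and Eif3k, an initiation factor subunit, -0.56 (adjusted p = 0.0205 and 0.0359), and Cct4, of the cytosolic chaperonin, -0.35 (adjusted p = 0.0414).

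Eef1a1, which brings aminoacyl-tRNA to the ribosome, fell in one line and had a value above 0 in the other. It was at 1956 ± 328 CPM in labelled RPN11 knockout and 3051 ± 67.0 in RPN11 flox/flox livers (SD, n = 4 each, log2 fold change -0.64, SE 0.14, adjusted p = 0.0295), and at 4184 ± 296 CPM in METTL3 knockout and 2922 ± 298 in METTL3 flox/flox livers (0.52, SE 0.19, adjusted p = 0.0515). The difference of the log2 fold changes was 1.17 (SE 0.23, adjusted p = 0.00385). Eef2, which moves the ribosome along the mRNA, had a difference of 0.84 (SE 0.20, adjusted p = 0.0127), Eef1g of 0.56 and Eef1b2 of 0.65 (adjusted p = 0.0381 and 0.046). In all, 4 of 19 genes of this list had a larger log2 fold change in the METTL3 line past the threshold and 0 a smaller one, against 6.15% and 6.96% of all tested genes.

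Genes of ribosome biogenesis, which build the subunits in the nucleolus, were measured beside the proteins themselves. In the RPN11 line 4 of 38 rose and 0 fell, where 1.99% of all tested genes were called higher and 2.82% lower, and the median log2 fold change was 0.236 against 0.034 for all genes. They were Nop58 and Nop56, core proteins of the box C/D particles that guide methylation of ribosomal RNA, with 0.89 (SE 0.16, adjusted p = 0.016) and 0.67 (SE 0.14, adjusted p = 0.0222), the processome protein Wdr75 with 0.61 (SE 0.12, adjusted p = 0.021) and nucleostemin, Gnl3, with 0.67 (SE 0.17, adjusted p = 0.0426). In the METTL3 line 5 of 39 rose and 3 fell, no larger shares than the 15.2% and 15.3% of all tested genes. Ddx21, a nucleolar helicase, rose by 0.99 (SE 0.18, adjusted p = 0.00248) and Heatr1, of the small subunit processome, by 2.01 (SE 0.40, adjusted p = 0.00425), while Nmd3, the export adaptor of the large subunit, had -0.73 (SE 0.12, adjusted p = 0.00142) and Sbds, which helps to release Eif6 from it, -0.75 (SE 0.14, adjusted p = 0.00328).

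**Figure D5:**
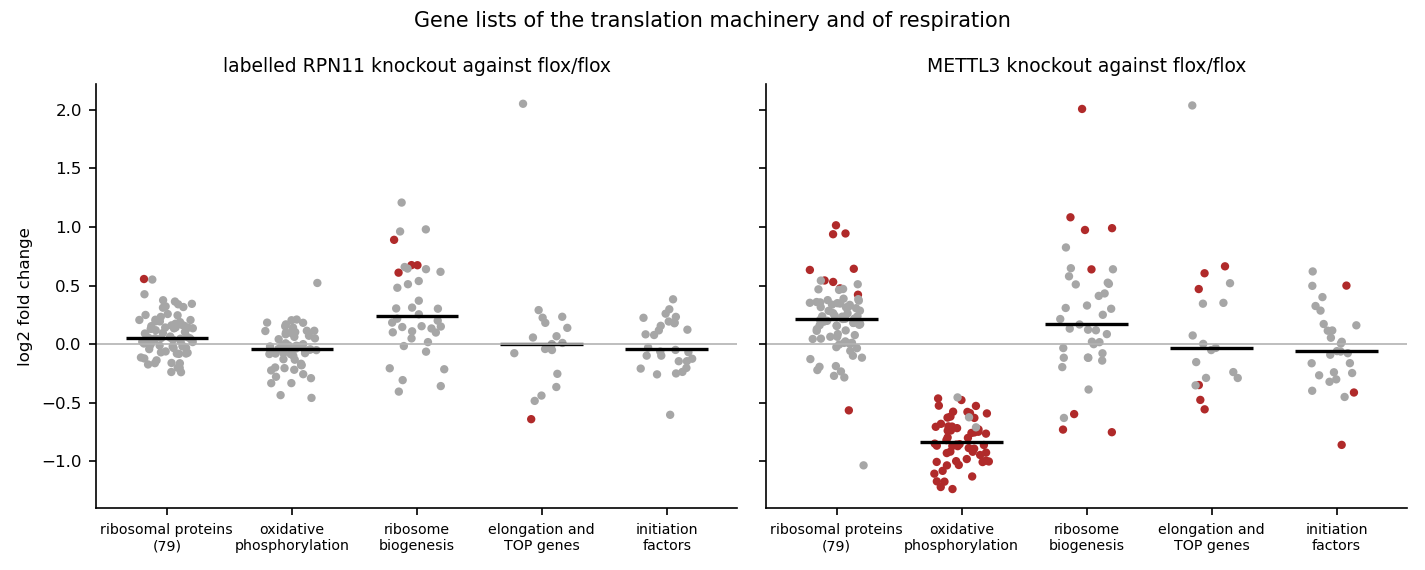
Log2 fold change of each tested gene (points, red where the edgeR adjusted p is under 0.05) of the 79 ribosomal protein genes and 4 other lists, in the RPN11 line (left) and the METTL3 line (right); horizontal bars are medians. In the METTL3 line the oxidative phosphorylation genes lie below 0, with a median of -0.833, and most ribosomal protein genes lie above it, with a median of 0.215.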

How the data were processed

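Reads were processed by the authors, per the submitters' processing notes, with cutadapt 1.9.3, HISAT2 2.0.4, HTSeq 0.9.1, edgeR and the genome build mm10. No source used here gives the strandedness, the gene annotation or the handling of reads with several matches. The deposited table holds whole-number counts per gene in 16 columns, and these were the values used. A further 16 columns of normalized values were not used. The count columns were matched to samples by line, genotype and replicate number in their names.

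Each line was fitted alone with edgeR 4.0.16 in R 4.3.3 (filterByExpr, TMM, glmQLFit with robust spread, glmQLFTest, 6 residual degrees of freedom). The difference between lines was an interaction contrast over all 16 livers (12 residual degrees of freedom), and the flox/flox livers were fitted as a further comparison. P-values were adjusted by Benjamini and Hochberg over all tested genes of a fit, at 0.05. All 79 genes passed the filter in each fit. Standard errors are the log2 fold change divided by the root of the F statistic. Marker lists were summed as CPM over plain totals. Coordinates and exon lengths come from GENCODE M21 (GRCm38) and sequences from RefSeq (GRCm38.p6).

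The genes and lists were chosen with earlier results of these data known. Genes were named by a rule: per comparison and direction, the 6 called genes with the lowest p, or the 3 lowest where fewer than 3 were called, the 5 highest levels per kb and the 5 lowest mean counts, stalk genes, paralogs, and up to 3 genes of each other list per line. Rpl32, Rps21, Eef1g, Eif3k, Cct4, Gnl3, Heatr1, Larp1 and Rps6ka1 were named after their values were seen. On simulated counts 200 genes, drawn at random from all that passed the filter, were changed. The fit recovered 43% of 2-fold and 75% of 4-fold changes in the RPN11 line over 11945 genes. In the METTL3 line it recovered 42% and 74% over 12213 genes. For the difference between lines it recovered fewer, 13% and 59% over 12902 genes, and between flox/flox groups 69% and 83% over 11722 genes. The real METTL3 fit called 1893 genes higher and 1906 lower, and the ribosomal protein genes were not simulated apart. These rates therefore do not give the recovery for the ribosomal protein genes. Alternatives were DESeq2 1.42.0, its size factors (RLE), plain totals, other filters, a replicate block, 1 fit of 16 livers and leaving out livers. No pair of libraries of a group held identical values. The closest, labelled RPN11 knockout replicates 1 and 3, differed by a chi-square of 8.37 per gene, above sampling noise.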

Additional observations from a re-analysis of the deposited data

Results flagged for a closer look

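Within groups of 4 livers, 3 of 76 sets of values had an end value far from the rest by Dixon's criterion, which chance meets in about 1 of 20 sets. Rplp0 in labelled RPN11 knockout livers was at 159, 168, 170 and, in replicate 4, 237 CPM, a gap of 0.858 of the range. Rpl11 in METTL3 knockout livers was at 110, 111, 111 and, in replicate 2, 122 CPM, a gap of 0.876 of the range. Rps3a3 in METTL3 knockout livers was at 5.24 CPM in replicate 1 and 8.37, 8.82 and 8.99 CPM in the others, a gap of 0.836 of the range.

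The difference between METTL3 knockout livers and their controls was not the same as that between labelled RPN11 knockout livers and theirs, by the interaction test of edgeR, for Rps4x by 0.66, for Rpl3 by 0.72 and for Rplp0 by 0.69 on the log2 scale, each larger in the METTL3 line. For Rplp0 the high labelled RPN11 knockout replicate 4 enters that test. Without that liver 5 of the 79 genes passed upward and 1, the Rpl24 row, downward. The share of all genes called without that liver is not given here.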

How the results depend on the processing

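Of 408 values of named genes under alternatives, 345 kept their direction and side of the threshold, 48 lost the call, 13 gained it and 2 reversed. With plain totals the log2 fold changes of Rpl11 and Rpl35a in the METTL3 line became 0.16 and 0.14. Genes called higher in the RPN11 line numbered 2 with plain totals, a mean of at least 5 CPM or DESeq2, 0 without a filter, and 0 to 1 with 1 liver left out. In the METTL3 line 49 were higher and 0 lower with plain totals, 14 were higher with at least 5 CPM and with DESeq2, and with 1 liver left out 2 to 26 were higher and 0 to 1 lower. Rps27l lost its call with plain totals (adjusted p = 0.46) and without METTL3 flox/flox replicate 1 (adjusted p = 0.0503). For the difference between lines 1 to 6 were higher and 0 to 1 lower with 1 liver left out, and 1 was lower with at least 5 CPM. Between flox/flox groups 1 was lower without a filter, 7 with DESeq2 and 0 to 9 with 1 liver left out. Where the share of all genes called under a setting is not given, the count shows dependence on that setting only. It is not read as a result about the ribosomal protein genes. Apart from settings that test fewer genes or fewer livers, the cause was not tested.

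Equal replicate numbers were not taken to pair livers, since no line had every same-numbered pair correlated by over 0.1. Deviations of same-numbered livers correlated by 0.086 to 0.238 in the METTL3 line, where 3 of 4 pairs were over 0.1 and 3 of 4 livers correlated best with their own number, a hint of pairing from the data, by -0.079 to -0.003 in the RPN11 line and by -0.176 to 0.119 between flox/flox groups. With a replicate block 0 genes were higher in the RPN11 line, 6 higher (against 9 without the block) and 1 lower in the METTL3 line, 3 higher in the difference and 0 lower between flox/flox groups. The shares of all genes called with the block are not given here.

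Rpl22 and RPL24 have few counts and wide errors, and reads shared with pseudogene copies were not separated here. The labelled RPN11 knockout livers gave no call for Psmd14, and each group has 4 livers.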

Other observations

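Initiation factors gave few calls in edgeR's quasi-likelihood test. Of 28 genes 0 passed in the RPN11 line. There 4 had an unadjusted p under 0.05, as did 3032 of all 12108 tested genes. In the METTL3 line 1 rose and 2 fell, where 15.2% of all tested genes were called higher and 15.3% lower. Eif3c, a subunit of the factor that holds the small subunit before start, rose by 0.50 (SE 0.15, adjusted p = 0.0266), Eif1, which guards the choice of start codon, had -0.86 (SE 0.15, adjusted p = 0.00183) and Eif3i -0.41 (SE 0.14, adjusted p = 0.044). DESeq2 was not counted for this list.

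A list of 20 genes was drawn up for mTORC1 and the S6 kinases, with Larp1 and Larp4 among them. Of these 1 rose and 1 fell in the RPN11 line, where 1.99% and 2.82% of all tested genes did. In the METTL3 line 2 rose and 2 fell, where 15.2% and 15.3% of all tested genes did. Larp1, which binds oligopyrimidine starts, rose in METTL3 knockout livers by 0.45 (SE 0.14, adjusted p = 0.0328) and Rps6ka3 by 1.96 (SE 0.39, adjusted p = 0.00411), while Rps6kb2 had -0.77 and Rheb, the activator of mTORC1, -0.43 (adjusted p = 0.0187 and 0.0237). In labelled RPN11 knockout livers Tsc1, an inhibitor of Rheb, had -0.54 (SE 0.13, adjusted p = 0.0436) and Larp4, which binds poly(A) tails, 0.56 (SE 0.14, adjusted p = 0.047). The difference between lines passed for 5 of the 20, 4 upward and 1 downward, where 6.15% and 6.96% of all tested genes passed. They were Tsc1 with 0.84 (adjusted p = 0.00725), Rps6ka1 with 1.29 (adjusted p = 0.0133), Larp1 with 0.63 (adjusted p = 0.0303), Eif4ebp2 with 1.48 (adjusted p = 0.0325) and, downward, Rheb with -0.71 (adjusted p = 0.0143).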
